A study of Mus musculus with 4 samples.

Results

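A list of 40 genes that build ribosomes or tie cell growth to MYC was followed in whole mouse ear skin, and 39 of the 40 were measured among 19938 genes that could be named on the arrays. The members come from a list of gene names rather than from a threshold on values, although earlier results of these data were known when it was made, and each is represented by the probe set that carries its symbol alone and has the highest mean over the arrays; Noc2l was not analysed here. RNA came from the ears of 8-week-old female mice and was read on 4 Affymetrix Mouse Gene 1.0 ST arrays, 1 for each group: Traf6EKO with imiquimod (EKO IMQ), Traf6EKO untreated (EKO untreated), Traf6f/f with imiquimod (f/f IMQ) and Traf6f/f untreated (f/f untreated). Traf6EKO mice lack the signalling adaptor TRAF6 in keratinocytes, the epithelial cells of skin, so other skin cells still have it, and Traf6f/f mice carry the floxed allele intact. The labels used here do not name the Cre line. Imiquimod, an agonist of Toll-like receptors that provokes psoriasis-like inflammation, was applied to the ear in a cream at 10 mg per day for 2 days. The series' text gives n = 2, and no source used here says whether each array holds RNA of 2 pooled mice.

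Each group is 1 array, so no value has a replicate error and no difference between a pair of arrays carries a p-value. Values are log2 levels; a difference of 1 is a 2-fold difference, and levels of different genes are not compared, because probe sets differ in brightness. The median of all named genes on an array, between 6.93 and 6.98, is called the floor. Counts over the 38 or fewer members and over all genes refer to genes that reached it on at least 1 array of the comparison, and counts over role groups, other pathway lists and marker lists refer to all measured genes of the list, those below the floor included, unless stated. The array medians lay between 6.52 and 6.57. Traf6 itself read 9.35 in EKO IMQ, 9.65 in EKO untreated, 9.30 in f/f IMQ and 9.51 in f/f untreated skin, which puts both EKO arrays above their f/f counterparts; no source used here places the probes against the deleted exons, so Traf6 does not check the labels. All 10 keratinocyte markers, Krt5 and Krt14 among them, reached the floor on all 4 arrays.

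Ribosomes are assembled in the nucleolus, where RNA polymerase I transcribes the long ribosomal RNA precursor, small nucleolar ribonucleoproteins (snoRNPs) guide its chemical modification and cleavage, and large sets of assembly factors fold the small and large subunits. MYC, a transcription factor that pairs with MAX on the E-box sequence CACGTG, is known to raise transcription of many of these genes together when cells grow and divide. In epidermis MYC and nucleolar activity are highest in proliferating keratinocytes.

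The E-box is shown here because it is the sequence that links MYC to its targets. Promoter windows of 250 bases before and 50 after a start site, from RefSeq on build GRCm38.p6, were found for 33 of the 40 members; Myc, Srm, Npm1, Fbl, Rrp12, Bop1 and Rrs1 are named only. CACGTG, which reads the same on both strands, occurred in the windows of 8 of these 33 members (24.2%), against 8.09% of 27025 genes with a promoter window and 11.8% of the 8456 genes with a window that reached the floor in f/f skin. In 7 of the 8 it began downstream of the start site and in Nop2 upstream of it. The 250 bases before the start of Nop2 (chr6:125131633-125131882, plus strand) are printed 5′ to 3′ with the E-box in capitals, where it begins 60 bases before the start.
Nop2: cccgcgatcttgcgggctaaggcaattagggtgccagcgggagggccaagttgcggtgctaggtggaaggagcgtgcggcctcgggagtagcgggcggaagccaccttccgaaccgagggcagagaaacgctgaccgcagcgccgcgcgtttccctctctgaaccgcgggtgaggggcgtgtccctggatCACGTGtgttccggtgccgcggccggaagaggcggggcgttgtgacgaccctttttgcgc
The other 7 are shown as 30-base stretches with the E-box in capitals, 5′ to 3′ on the gene's strand: Pes1 lies at chr11:3963965-3963994 (plus), Wdr43 at chr17:71616220-71616249 (plus), Tsr1 at chr11:74898092-74898121 (plus), Grwd1 at chr7:45830740-45830769 (minus), Utp20 at chr10:88826765-88826794 (minus), Pno1 at chr11:17211540-17211569 (minus) and Mybbp1a at chr11:72441347-72441376 (plus).
Pes1: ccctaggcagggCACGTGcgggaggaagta
Wdr43: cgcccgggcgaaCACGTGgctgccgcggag
Tsr1: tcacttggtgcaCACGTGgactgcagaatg
Grwd1: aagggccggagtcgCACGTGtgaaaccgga
Utp20: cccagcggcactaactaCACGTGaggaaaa
Pno1: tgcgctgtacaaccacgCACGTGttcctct
Mybbp1a: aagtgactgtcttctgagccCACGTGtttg

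A match is a description of the letters and not a bound site. Other short motifs, whose letters cannot overlap the E-box, were counted on both strands of the same windows: CCGGAAG, the core of ETS-family sites, occurred in 12 of 33 members (36.4%), against 9.93% of all genes and 19.5% of genes reaching the floor. TATAAA, the TATA box, occurred in 2 of 33 (6.06%), against 15.7% of all genes and 9.79% of genes reaching the floor. The median G+C content of the windows was 59.3% in members, 52.8% in all genes and 61.0% in genes reaching the floor.

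Imiquimod was accompanied by higher levels of the members in both genotypes, with smaller differences in EKO. In EKO skin 35 of 37 members that reached the floor were higher with IMQ, where 47.1% of all 10285 genes were, at a median of 0.19 (1.14-fold) against -0.01 for all genes; 0 of 37 were at least 1.5-fold higher, where 2.66% of all genes were. In f/f skin 38 of 38 members were higher with IMQ, where 50.6% of all 10548 genes were, at a median of 0.73 (1.65-fold) against 0.01 for all genes. Of these 38, 25 were at least 1.5-fold higher in f/f, where 10.2% of all genes were, and 6 at least 2-fold higher, where 3.82% of all genes were. Those 6 were Srm, Bysl, Nop58, Dkc1, Bop1 and Pno1. Rrs1 lay below the floor on all 4 arrays, and Nip7 reached it on the f/f IMQ array alone, which is why 37 members are counted in EKO. Bysl and Grwd1 reached it in f/f through the IMQ array, as Nip7 did.

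**Figure D1:**
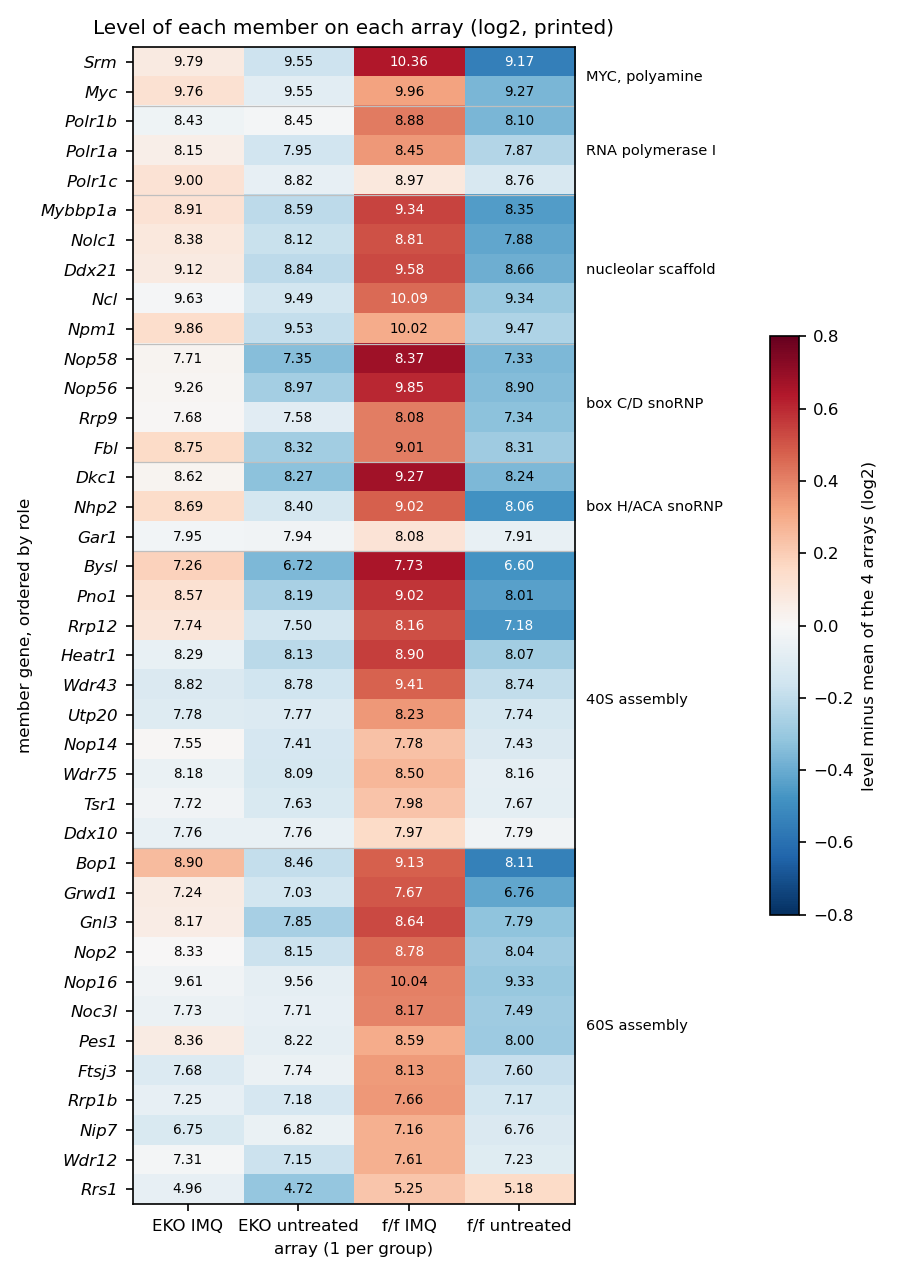
Log2 level of 39 members (rows, ordered by role) on the 4 arrays (columns), printed in each cell; colour shows the level minus the member's own mean over the 4 arrays. The f/f IMQ column is the highest for 38 of 39 members, and the f/f untreated column the lowest for 32.

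Among the 38 members that reached the floor on any array, 37 were highest on the f/f IMQ array, where 36.3% of all 10646 genes were, and 32 were lowest on the f/f untreated array, where 35.6% of all genes were.

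Myc and Srm stand at the growth-control end of the list. Myc read 9.76 in EKO IMQ and 9.55 in EKO untreated skin, against 9.96 in f/f IMQ and 9.27 in f/f untreated skin. Its IMQ difference was 0.22 in EKO and 0.69 (1.61-fold) in f/f. Srm, the spermidine synthase gene of the polyamine pathway, read 9.79 in EKO IMQ and 9.55 in EKO untreated skin, against 10.36 in f/f IMQ and 9.17 in f/f untreated skin. Its differences of 0.24 in EKO and 1.19 (2.28-fold) in f/f include the largest f/f difference of the 39 members. Both genes were lowest on the f/f untreated array and highest on the f/f IMQ array, with the EKO arrays between.

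The RNA polymerase I subunits differed among themselves. Polr1b, which encodes a subunit of the catalytic core, read 8.43 in EKO IMQ and 8.45 in EKO untreated skin, against 8.88 in f/f IMQ and 8.10 in f/f untreated skin. Its IMQ difference was therefore -0.02 in EKO and 0.78 in f/f. Polr1a, the other core subunit, had differences of 0.19 in EKO and 0.58 in f/f. Polr1c, a subunit shared with RNA polymerase III, read 0.03 above its f/f IMQ level in EKO IMQ skin and 8.82 in EKO untreated skin, against 8.97 in f/f IMQ and 8.76 in f/f untreated skin. It had almost the same IMQ difference in the genotypes, 0.19 in EKO and 0.22 in f/f, and was the only one of 39 members whose highest level was on the EKO IMQ array.

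All 5 nucleolar scaffold and chaperone genes were higher with IMQ, where 47.1% of all genes reaching the floor were in EKO and 50.6% in f/f. Their medians were 0.28 in EKO and 0.92 in f/f. Ncl encodes nucleolin, an abundant RNA-binding protein of the nucleolus, and read 9.63 in EKO IMQ and 9.49 in EKO untreated skin, against 10.09 in f/f IMQ and 9.34 in f/f untreated skin. The IMQ differences of Ncl were 0.14 in EKO and 0.75 in f/f. Mybbp1a, a MYB-binding nucleolar protein, had 0.32 in EKO and 1.00 in f/f. Nolc1, a chaperone of snoRNPs, had 0.26 and Ddx21, an RNA helicase, 0.28 in EKO, against 0.93 and 0.92 in f/f. Npm1, the histone and ribosome chaperone nucleophosmin, had the smallest f/f difference of the 5 at 0.56, with 0.34 in EKO. Besides the probe set used, 3 probe sets list Npm1 together with a second gene; they differed by 0.17 to 0.19 in EKO and by 0.45 to 0.55 in f/f.

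The snoRNP proteins form a pair of machines, one for ribose methylation (box C/D) and one for pseudouridine formation (box H/ACA). By the probe sets used, all 4 box C/D members were at least 1.5-fold higher with IMQ in f/f. Among all genes reaching the floor, 10.2% were. Nop58, a core scaffold protein, read 7.71 in EKO IMQ and 7.35 in EKO untreated skin, against 8.37 in f/f IMQ and 7.33 in f/f untreated skin. Its differences were 0.36 in EKO and 1.05 (2.06-fold) in f/f, and its partner Nop56 had 0.29 in EKO and 0.95 in f/f. Fbl, the methyltransferase, had 0.43 in EKO and 0.70 in f/f, the EKO value being the largest after those of Bysl and Bop1. A second Fbl probe set gave 0.09 in EKO and 0.55 in f/f, the latter below 1.5-fold. Both the EKO value of Fbl and its 1.5-fold count in f/f thus depend on the probe set. Rrp9, a protein of the snoRNP that guides the first cleavages of the precursor, had 0.09 in EKO and 0.74 in f/f.

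Among the box H/ACA genes Dkc1, the pseudouridine synthase dyskerin, read 8.62 in EKO IMQ and 8.27 in EKO untreated skin, against 9.27 in f/f IMQ and 8.24 in f/f untreated skin. The Dkc1 differences were 0.34 in EKO and 1.03 (2.04-fold) in f/f, and Nhp2, a core protein of the same particle, had 0.30 in EKO and 0.96 in f/f. Gar1, the remaining partner, had 0.02 in EKO and 0.17 in f/f and was among the members that differed least.

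The 10 small subunit factors were all higher with IMQ in f/f, where 50.6% of all genes reaching the floor were. At least 1.5-fold higher were 5 of the 10, where 10.2% of those genes were. The medians were 0.11 in EKO and 0.58 in f/f. Bysl, a late maturation factor, read 7.26 in EKO IMQ and 6.72 in EKO untreated skin, against 7.73 in f/f IMQ and 6.60 in f/f untreated skin. Its differences were 0.54 (1.45-fold) in EKO, the largest EKO value of the list, and 1.13 (2.19-fold) in f/f; both untreated levels were below the floor, where signals are compressed. Pno1, which acts with it late in maturation, had 0.39 in EKO and 1.01 in f/f, and Rrp12, an export factor of pre-ribosomes, 0.24 in EKO and 0.98 in f/f. The early processome proteins were spread widely: Heatr1 had 0.16 in EKO and 0.83 in f/f, Wdr43 0.04 and 0.67, Utp20 0.01 and 0.49, Nop14 0.14 and 0.35, and Wdr75 0.09 and 0.34, in the same order. The helicase Ddx10 had 0.00 in EKO and 0.18 in f/f, and Tsr1, a late factor related to GTPases, 0.09 in EKO and 0.31 in f/f.

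Of the 12 large subunit factors measured, 11 reached the floor in f/f. Of these 11, 7 were at least 1.5-fold higher with IMQ in f/f, where 10.2% of all genes reaching the floor were. The medians over all 12 were 0.15 in EKO and 0.64 in f/f. Pes1, Bop1 and Wdr12 encode the PeBoW complex, and their values differed. Bop1 read 8.90 in EKO IMQ and 8.46 in EKO untreated skin, against 9.13 in f/f IMQ and 8.11 in f/f untreated skin, which gave 0.44 in EKO and 1.02 (2.03-fold) in f/f. Pes1 had 0.14 in EKO and 0.60 in f/f, and Wdr12 0.16 in EKO and 0.37 in f/f; a second Wdr12 probe set gave 0.14 in EKO and 0.55 in f/f. Grwd1, a ribosomal protein chaperone, had 0.21 in EKO and 0.91 in f/f, Gnl3, the GTPase nucleostemin, 0.32 in EKO and 0.85 in f/f, and Nop2, an RNA methyltransferase, 0.18 in EKO and 0.74 in f/f. Nop16 (0.06 in EKO and 0.72 in f/f), Noc3l (0.02 in EKO and 0.68 in f/f) and Rrp1b (0.07 in EKO and 0.49 in f/f) are further assembly factors with EKO values near 0.

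Ftsj3, an RNA methyltransferase, had -0.06 in EKO and 0.53 in f/f. Nip7 had -0.07 in EKO and 0.40 in f/f. Rrs1 read 4.96 in EKO IMQ and 4.72 in EKO untreated skin, against 5.25 in f/f IMQ and 5.18 in f/f untreated skin. All 4 of these Rrs1 levels were below the floor, so its differences of 0.23 in EKO and 0.07 in f/f were not interpreted.

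**Figure D2:**
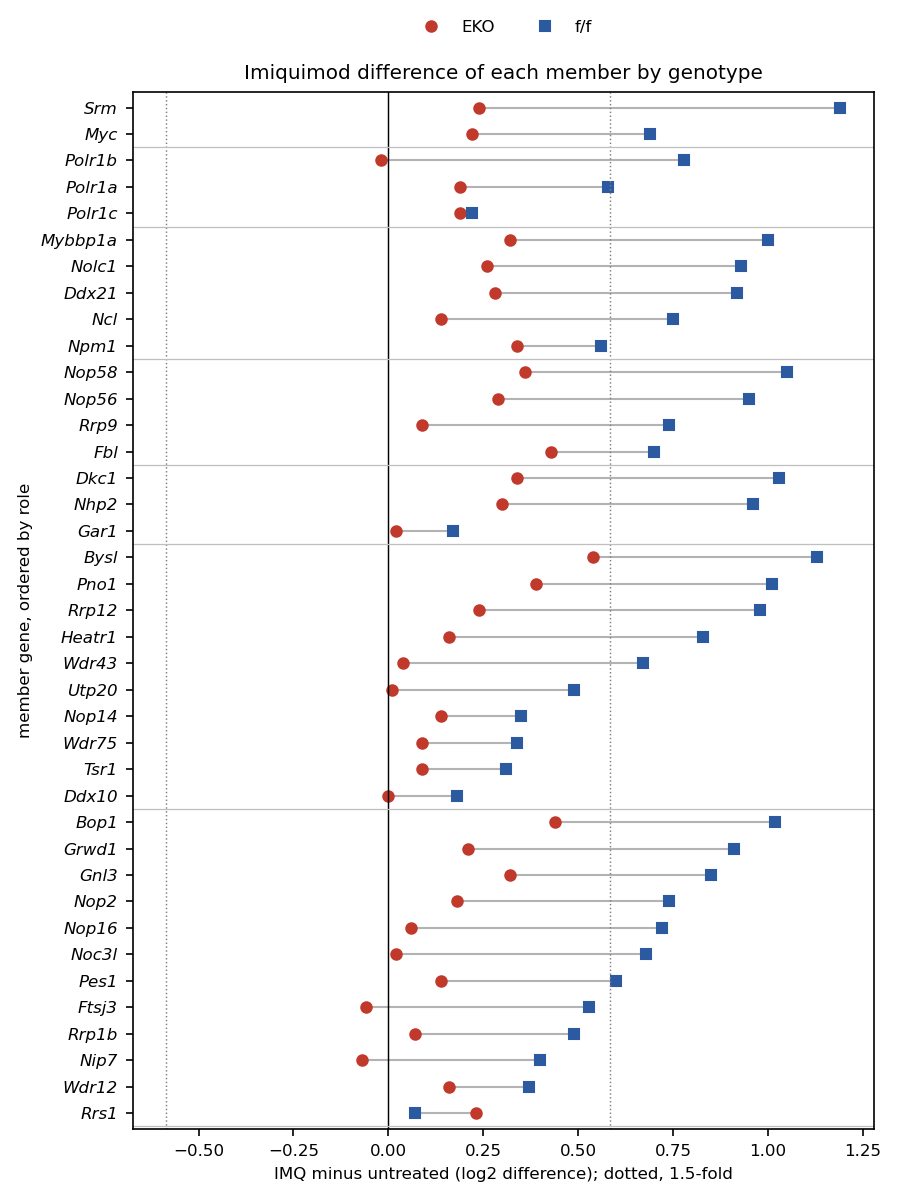
IMQ minus untreated difference (log2, x axis) of 39 members (y axis, ordered by role) in EKO (red circles) and f/f (blue squares); dotted lines mark 1.5-fold. The blue square lies right of the red circle for 38 of 39 members, Rrs1 being the exception.

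The difference of the IMQ differences, EKO minus f/f, was below 0 for 38 of 38 members that reached the floor, where 53.3% of all 10646 genes were below 0. Its median was -0.59, against -0.02 for all genes, and 21 of 38 members were at least 1.5-fold lower, where 4.63% of all genes were. The largest were Srm (-0.95), Polr1b (-0.79) and Rrp12 (-0.74), and the smallest Polr1c (-0.03), Gar1 (-0.15) and Ddx10 (-0.18). Across the 38 members the EKO difference was a median of 26.9% of the f/f difference, with quartiles of 13.0% and 34.1%. The same median, over the genes of a list that reached the floor in f/f, was 20.3% for 41 further large subunit factors. It was 24.8% for 39 further small subunit factors and 37.0% for 25 metabolic MYC targets. It was 37.8% for 10 keratinocyte markers and 48.6% for 14 cell cycle genes. Among markers lower with IMQ, it was 30.6% for 8 adipocyte and 31.2% for 9 skeletal muscle markers. For 5 neutrophil markers it lay below the members' median, but Trem1, Clec4e and Csf3r among them reached the floor on the f/f IMQ array alone. Some members and some genes of the subunit factor, metabolic and cell cycle lists were also counted in f/f through the IMQ array. The remaining lists ran from -54.6% for 3 hair shaft markers to 94.4% for 5 cartilage markers. A share near that of the members was thus not confined to ribosome assembly genes. With 1 array per group neither this share nor the difference of differences was tested, and the share is unsteady where the f/f difference is small.

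Members that differed more in f/f also tended to differ more in EKO: across the 39 members, which share the same 4 arrays, Pearson's r was 0.61 and Spearman's rho 0.67. These 39 include Rrs1, which lay below the floor on all 4 arrays. Members with and without an E-box overlapped. The 8 members with CACGTG had a median IMQ difference of 0.16 in EKO and 0.71 in f/f, and the 24 measured members whose windows lack it had 0.15 in EKO and 0.73 in f/f. In f/f their ranges were 0.31 to 1.01 and 0.17 to 1.13.

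**Figure D3:**
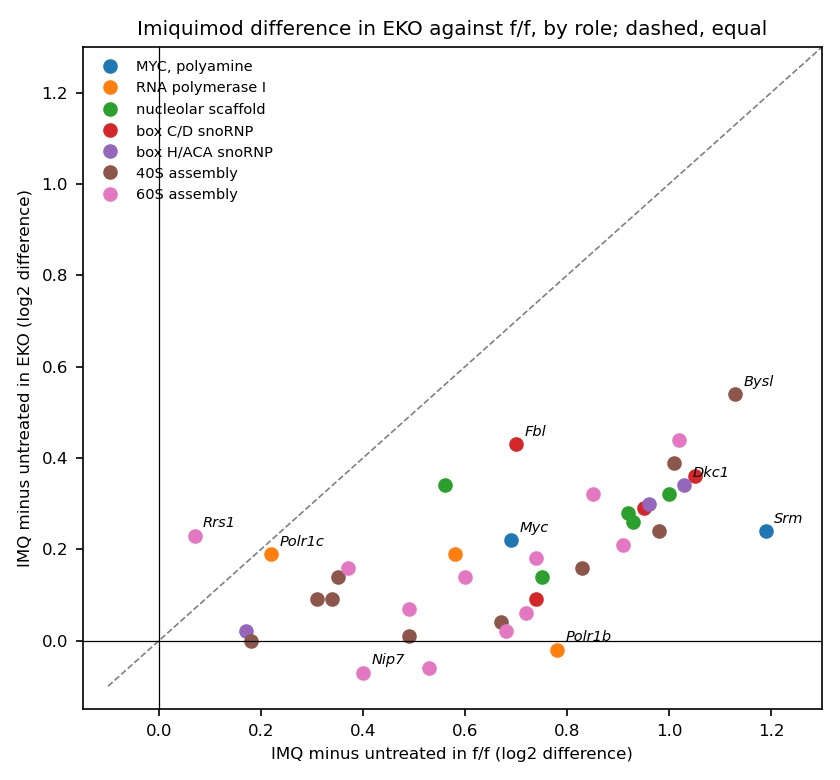
IMQ difference in EKO (y axis, log2) against that in f/f (x axis, log2) for 39 members coloured by role; the dashed line marks equal differences. All points but Rrs1 lie below the dashed line, and Bysl is the highest.

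Without imiquimod the members differed little between the genotypes. Of 36 members that reached the floor, 31 were higher in EKO untreated than in f/f untreated skin, where 55.1% of all 10200 genes were, at a median of 0.10 against 0.02 for all genes. None was at least 1.5-fold higher (0 of 36, where 0.647% of all genes were) or lower (0 of 36, where 1.06% were). The largest were Srm (0.38), Bop1 (0.35), Polr1b (0.35), Nhp2 (0.33), Rrp12 (0.32) and Myc (0.28). The 5 members below 0, where 44.9% of all genes were, were Wdr75, Wdr12, Tsr1, Ddx10 and Nop14, between -0.08 and -0.02. By the probe sets used, these 5 are in f/f among the members that differed least with IMQ. Both comparisons subtract the same f/f untreated array, so this link is partly built in. The second Wdr12 probe set gave -0.01 untreated and 0.55 for IMQ in f/f.

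With imiquimod the direction was the opposite. Of 38 members, 37 were lower in EKO IMQ than in f/f IMQ skin, where 50.9% of all 10282 genes were, at a median of -0.43 against -0.01 for all genes. The 5 that were at least 1.5-fold lower, where 2.61% of all genes were, were Nop58 (-0.66), Dkc1 (-0.65), Heatr1 (-0.61), Nop56 (-0.59) and Wdr43 (-0.59); Srm followed at -0.57. After quantile normalization 3 members were at least 1.5-fold lower. Myc itself was at -0.20, and Polr1c at 0.03 was the exception. Of the 38 members that reached the floor on any array, 29 had the order f/f IMQ over EKO IMQ over EKO untreated over f/f untreated, where 20% of all 10646 genes had it. The untreated and IMQ comparisons of the genotypes share no array with each other, but each shares an array with both IMQ comparisons.

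**Figure D4:**
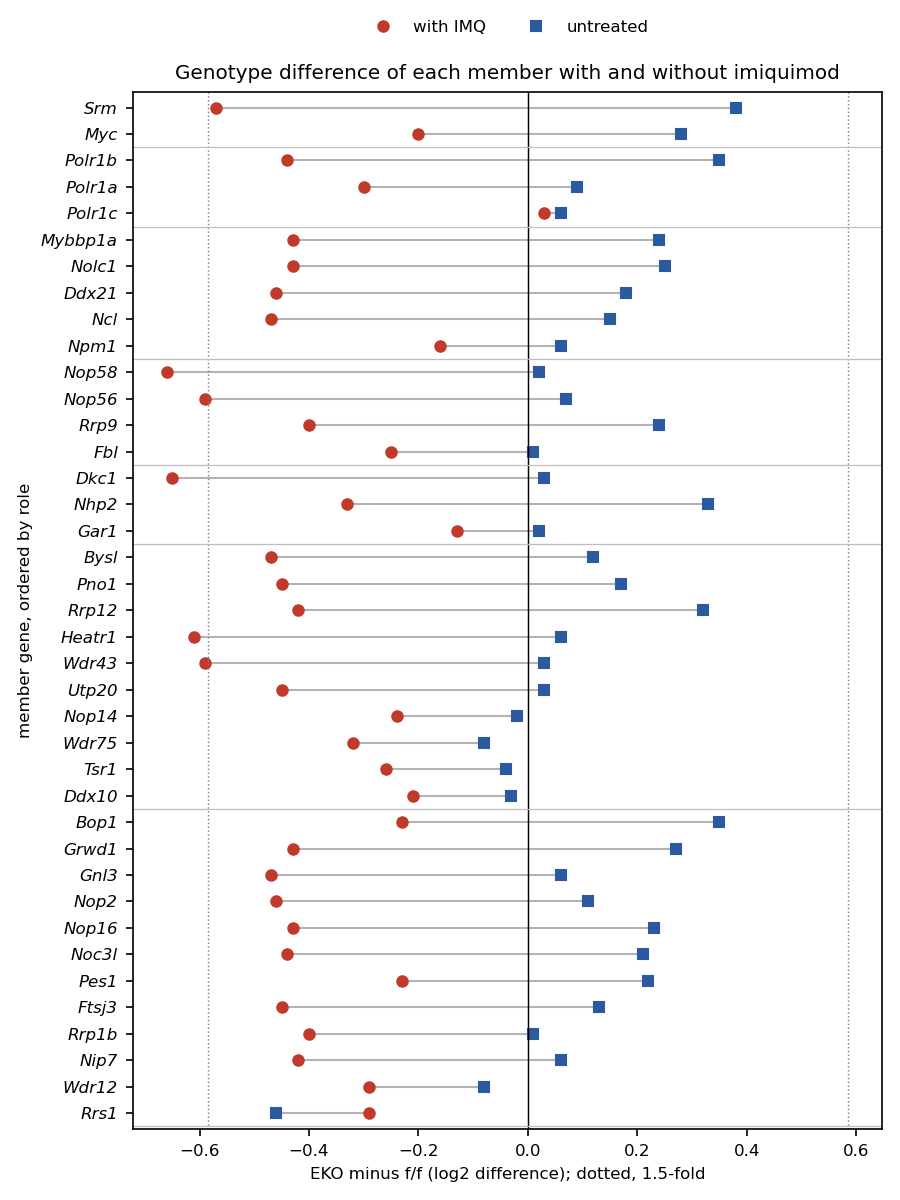
EKO minus f/f difference (log2, x axis) of 39 members (y axis, ordered by role) with IMQ (red circles) and untreated (blue squares); dotted lines mark 1.5-fold. With IMQ 38 of 39 members lie below 0, and untreated 33 of 39 lie above 0.

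Other genes of the pathway, taken from lists made by name, were also higher with IMQ, at smaller medians. Of 42 further small subunit factors measured, 37 reached the floor in EKO and 39 in f/f. Among these 26 of 37 were higher with IMQ in EKO and 36 of 39 in f/f, where 47.1% and 50.6% of all genes were. The medians were 0.08 in EKO and 0.45 in f/f. In EKO 0 of 37 and in f/f 14 of 39 were at least 1.5-fold higher, where 2.66% and 10.2% of all genes were. On the f/f IMQ array 39 reached the floor and on f/f untreated 32, so some were counted in f/f through the IMQ array alone. Over all 42, with no floor, 38 were higher in f/f at a median of 0.41, and 30 in EKO at 0.08. They were led by Utp4 (0.29 in EKO, 1.15 in f/f), Wdr46 (0.36 in EKO, 0.99 in f/f), Lyar (0.32 in EKO, 0.89 in f/f) and Tbl3 (0.33 in EKO, 0.86 in f/f). Of 43 further large subunit factors 40 reached the floor in EKO and 41 in f/f. Of these 30 were higher in EKO and 39 in f/f, with medians of 0.07 in EKO and 0.44 in f/f. In f/f 8 of the 41 were at least 1.5-fold higher, where 10.2% of all genes were. The floor was reached by 41 on the f/f IMQ array and by 39 on f/f untreated. Over all 43, with no floor, the medians were 0.08 in EKO and 0.43 in f/f. Eif6, which keeps the large subunit from joining too early, had 0.35 in EKO and 1.02 in f/f. Mrto4, another of these large subunit factors, had 0.28 in EKO and 0.99 in f/f.

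Of the 13 further RNA polymerase I genes 8 were higher with IMQ in EKO and 9 in f/f, where 46.9% and 48.8% of all 19938 genes were with no floor. The medians were 0.03 in EKO and 0.18 in f/f. Taf1d, a subunit of the polymerase I selectivity factor, had 0.70 in EKO and 1.06 in f/f, Tcof1, the nucleolar protein treacle, 0.24 in EKO and 0.86 in f/f, and the initiation factor Rrn3 0.20 in EKO and 0.55 in f/f. Taf1a, a subunit of the same selectivity factor as Taf1d and chosen after its values were seen, was the lowest of the 13 at -0.56 in EKO and -0.51 in f/f.

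Ribosomal protein genes, the cargo of these factors, had smaller medians than the members, at 0.04 in EKO and 0.11 in f/f. The EKO median turned to -0.01 after quantile normalization. Of 55 measured ribosomal protein genes 39 in EKO and 45 in f/f were higher with IMQ, where 47.1% and 50.6% of all genes reaching the floor were. At least 1.5-fold higher were 0 in EKO, as for the members, and 0 in f/f, where 2.66% and 10.2% of all genes were. The largest f/f values were Rpl14 (0.36 in EKO, 0.56 in f/f) and Rps13 (0.17 in EKO, 0.49 in f/f). Another 24 of the 79 listed ribosomal protein genes had no probe set of their own, and ribosomal protein genes have many near-identical processed copies that probes may also read.

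MYC partners and antagonists had medians near 0, at 0.02 in EKO and 0.00 in f/f over 18 genes, 1 of them below the floor on all 4 arrays, and the f/f median changed sign with the scaling. Mxd1, a MAX partner that opposes MYC, was at 0.23 in EKO and 0.64 in f/f, and Mxd4 of the same family at -0.17 in EKO and -0.58 in f/f. The helicase genes Ruvbl1 (0.02 in EKO, 0.58 in f/f) and Ruvbl2 (0.09 in EKO, 0.69 in f/f) were higher. Metabolic genes known as MYC targets had medians of 0.18 in EKO and 0.56 in f/f over 26 genes, with another 5 of the 31 listed not measured. Of these 26 metabolic genes 24 reached the floor in EKO and 25 in f/f. At least 1.5-fold higher were 1 of the 24 in EKO and 13 of the 25 in f/f. Among all genes reaching the floor, 2.66% in EKO and 10.2% in f/f were. The amino acid transporter Slc7a5 (0.53 in EKO, 1.42 in f/f), the serine-glycine enzyme Shmt2 (0.62 in EKO, 1.39 in f/f), the nucleotide kinase Nme1 (0.55 in EKO, 1.29 in f/f) and the pyrimidine enzyme Cad (0.41 in EKO, 1.19 in f/f) led them. Genes known to respond to p53, which can be stabilised when ribosome assembly fails, had medians of 0.01 in EKO and 0.02 in f/f over 6 genes. Of these 6, 1 lay below the floor on all 4 arrays, and another 4 of the 10 listed were not measured. Ccng1 was at -0.38 in EKO and -0.82 in f/f, and Sesn2 at 0.33 in EKO and 0.61 in f/f.

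**Figure D5:**
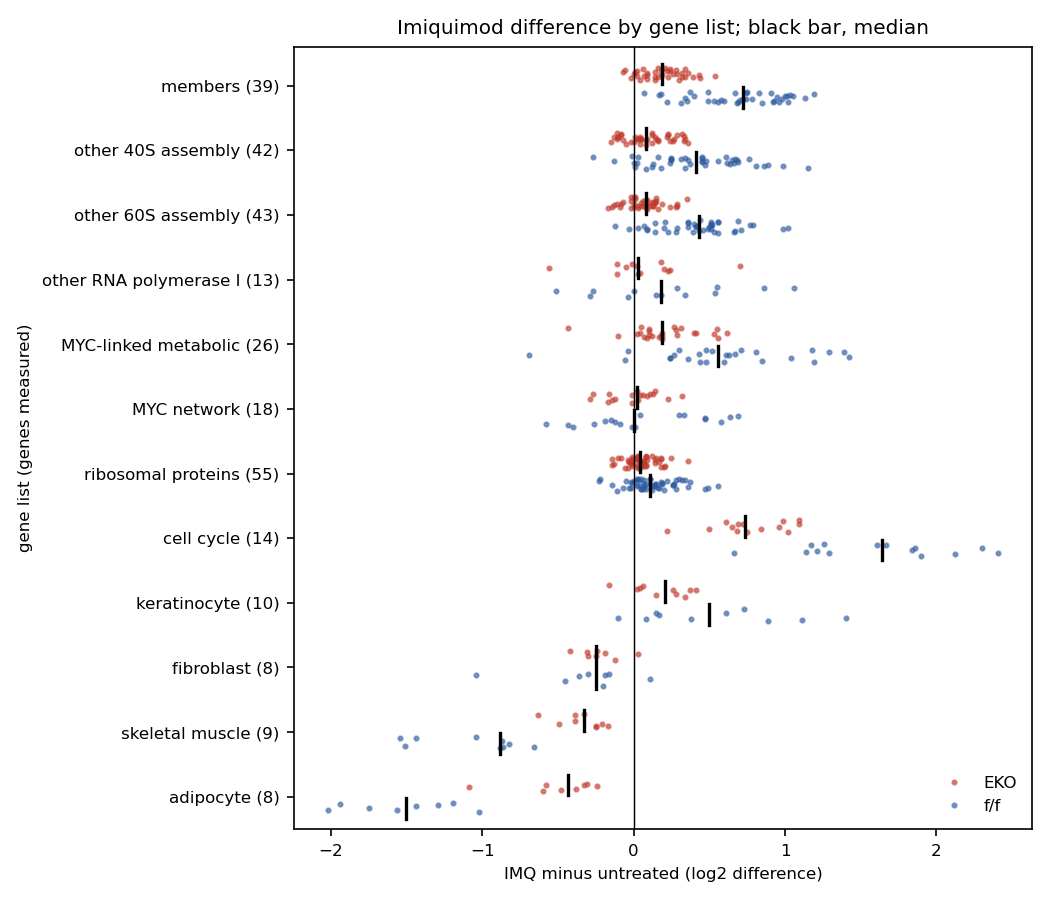
IMQ minus untreated difference (log2, x axis) of every measured gene in 12 lists (y axis, number of genes in brackets) in EKO (red) and f/f (blue), with the median as a black bar. The members' medians lie at 0.19 in EKO and 0.72 in f/f over all 39 measured, to the right of the ribosomal proteins at 0.04 in EKO and 0.11 in f/f.

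A further readout from the same loci came from snoRNA genes that lie within the members. RefSeq places 19 snoRNA genes within 7 members, and 4 had a probe set of their own. Snord57 in Nop56 was at -0.06 in EKO and -0.23 in f/f with IMQ, Snora75 and Snord82 in Ncl at -0.22 and -0.07 in EKO and at -0.41 and -0.30 in f/f, and Snord53 in Wdr43 at 0.42 in EKO and 0.49 in f/f. The snoRNAs of Nop56 and Ncl thus lay on the other side of 0 from their host genes. No source used here says whether these probes read the short RNA, its precursor or the host's intron, and Snora75 lay below the floor on all 4 arrays.

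Other gene groups moved with the members, and in whole skin fewer cells of a type and less RNA per cell cannot be told apart. All 14 cell cycle genes were higher with IMQ, where 47.1% of all genes reaching the floor were in EKO and 50.6% in f/f. Their medians were 0.74 in EKO and 1.64 in f/f. Mki67 read 9.76 in EKO IMQ and 8.78 in EKO untreated skin, against 10.00 in f/f IMQ and 8.10 in f/f untreated skin. Against the same shares of all genes, 9 of 10 keratinocyte markers were higher with IMQ in each genotype (medians 0.21 in EKO and 0.50 in f/f). The mean level of the 10 was 12.16 in EKO IMQ, 11.99 in EKO untreated, 12.25 in f/f IMQ and 11.70 in f/f untreated skin. Between the genotypes with IMQ the keratinocyte markers had a median of 0.02 and the cell cycle genes of -0.30, beside -0.43 for the members. In that comparison medians were -1.18 for stress keratinocyte, -0.84 for neutrophil, 0.50 for skeletal muscle and 0.59 for adipocyte markers. The other marker lists lay between -0.11 and 0.89. Untreated, EKO minus f/f medians were 0.51 for cell cycle genes, 0.27 for keratinocyte and 0.30 for stress keratinocyte markers. They were -0.19 for skeletal muscle and -0.48 for adipocyte markers, beside 0.10 for the members. Other marker lists lay between -0.58 and 0.13. For IMQ against untreated, stress keratinocyte markers had medians of 1.69 in EKO and 3.95 in f/f, with Krt16 at 3.09 in EKO and 4.69 in f/f.

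All 9 skeletal muscle markers were lower with IMQ in each genotype, at medians of -0.33 in EKO and -0.88 in f/f. Of all genes reaching the floor, 5442 of 10285 were lower in EKO and 5204 of 10548 in f/f. The muscle markers had mean levels of 10.36 in EKO IMQ, 10.71 in EKO untreated, 9.87 in f/f IMQ and 10.94 in f/f untreated skin. All 8 adipocyte markers were likewise lower (medians -0.43 in EKO and -1.50 in f/f), with mean levels of 9.82, 10.32, 9.28 and 10.81 on the same arrays in the same order. Most of the 7 neutrophil markers were dim: 2 reached the floor on the EKO IMQ array, 2 on EKO untreated, 5 on f/f IMQ and 1 on f/f untreated, and 2 (Ly6g and Retnlg) lay below it on all 4. Trem1, Clec4e and Csf3r reached it on the f/f IMQ array alone. The mean levels of the 7 were 5.92 in EKO IMQ, 5.66 in EKO untreated, 7.10 in f/f IMQ and 5.50 in f/f untreated skin. Medians were -0.24 in EKO and -0.25 in f/f for fibroblast markers, -0.54 and -0.59 for cartilage, -0.23 and -0.44 for endothelium, -0.09 and -0.29 for macrophages, -0.18 and -0.15 for T cells, and 0.63 and -0.89 for hair shaft. The part of these groups in the members' differences was not tested.

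Averaged over the other factor, the effects could be fitted with limma across 10646 genes, with 1 residual degree of freedom that holds the genotype-by-IMQ difference plus noise and not a spread between like animals. At an adjusted p under 0.05, 0 of 38 members and 0 of all 10646 genes (0%) were called for IMQ. At an unadjusted p under 0.05, 17 of 38 members passed for IMQ, where 26.4% of all genes did. By limma Fbl had the smallest unadjusted p of the members, 0.00776, with an averaged IMQ effect of 0.57 ± 0.12 (SE) and an adjusted p of 0.162. The second Fbl probe set, at 0.09 in EKO and 0.55 in f/f, was not part of the fit. The averaged effects of the 38 members were all above 0, between 0.09 and 0.83. For genotype 0 of 38 members passed in limma at an adjusted p under 0.05 and 0 at an unadjusted p under 0.05, where 0% and 3.23% of all genes did.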

How the data were processed

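The authors deposited log2 levels for each probe set, made with RMA per the submitters' processing notes; the log2 scale is judged from values between 2.58 and 13.8. No source used here gives the RMA version, annotation or build. RMA makes the arrays' distributions alike, which hides any shift shared by most genes, and it compresses dim signals. Of 35556 probe sets, 21789 had 1 gene symbol in the platform annotation, 1621 several and 12146 none listed; 21698 were found by Entrez identifier in RefSeq (GRCm38.p6), with 0 symbols differing. Groups came from the sample titles. Log2 differences and counts at 1.5-fold and 2-fold used Python 3.11.15 (pandas 2.3.3, numpy 2.4.6). The additive fit used limma 3.58.1 in R 4.3.3 (eBayes with trend, Benjamini-Hochberg adjustment). In a simulation of the averaged IMQ effect (10646 genes), each changed gene had the same change in both genotypes. The fit recovered 2% of 50 genes changed 1.5-fold, 48% of 50 changed 2-fold and 100% of those changed 4-fold. It called 5 of 10446 unchanged genes. The members' EKO differences were mostly smaller than their f/f differences. That gap enters the residual, so these shares do not apply to the members. All 40 members are named, with up to 4 genes per other list by largest f/f IMQ difference, plus Mki67, Krt16, Traf6 and markers needed for a sentence. The members, lists and rules were chosen with earlier results of these data known. Alternatives were median, cyclic loess and quantile scaling, averaged probe sets, no floor, other summaries and other limma settings. The number of arrays limits the precision.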

Additional observations from a re-analysis of the deposited data

Results flagged for a closer look

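Polr1b, Ftsj3 and Nip7 had IMQ differences of opposite sign in the genotypes. The EKO minus f/f difference of the IMQ differences was -0.79 for Polr1b (-0.02 in EKO, 0.78 in f/f), -0.59 for Ftsj3 (-0.06 in EKO, 0.53 in f/f) and -0.47 for Nip7 (-0.07 in EKO, 0.40 in f/f). The EKO values are close to 0, that of Polr1b is at 0.00 after median centring, and Nip7 reached the floor on the f/f IMQ array alone. The members' median EKO minus f/f difference was -0.43 with IMQ and 0.10 untreated, again of opposite sign. With 1 array per group these differences between groups were not tested.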

How the results depend on the processing

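The medians of the members kept their sign under all 7 alternatives in each of the 5 comparisons: 0.18 to 0.20 for IMQ in EKO, 0.69 to 0.77 for IMQ in f/f, 0.08 to 0.13 for EKO against f/f untreated, -0.44 to -0.39 for EKO against f/f with IMQ, and -0.62 to -0.52 for the difference of the IMQ differences. The count of members at least 1.5-fold higher with IMQ in f/f lay between 23 and 27, and at least 2-fold between 5 and 9; 0 reached 1.5-fold in EKO under any of them. With IMQ, the members lower in EKO by at least 1.5-fold numbered 5 as deposited and 3 after quantile normalization, the single alternative of 103 that moved a count by over 1.5 times or a median by 0.1 or more; its cause was not tested. Under the scalings 1 member changed sign for IMQ in EKO (Polr1b), 1 for EKO against f/f untreated (Fbl, 0.01 as deposited and -0.01 after cyclic loess) and 1 for the difference of differences (Polr1c), all within 0.03 of 0. The limma fits called 0 members at an adjusted p under 0.05 under every setting run; at an unadjusted p under 0.05, 15 to 21 passed for IMQ, and 1 (without the floor) or 0 for genotype. No paired analysis was possible because each group holds 1 array. Signal below the floor limits Rrs1 on all arrays and Bysl, Grwd1 and Nip7 on some.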
